A study of Mus musculus with 4 samples.

Results

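The genes described here encode 6 mitogen-activated protein (MAP) kinases and 3 scaffold proteins of the c-Jun N-terminal kinase (JNK) pathway, measured in embryonic mouse pancreas that lacked the transcriptional repressor REST and in control pancreas. They are the rows of the deposited count table whose symbols are *Mapk3*, *Mapk8*, *Mapk9*, *Mapk10*, *Mapk11*, *Mapk14*, *Mapk8ip1*, *Mapk8ip2* and *Mapk8ip3*, which is 9 of the 24391 genes in the table. All 9 were among the 14550 genes with enough reads to be tested. None passed the test between genotypes after adjustment over the whole table. The largest ratio of mutant to control was that of the scaffold gene *Mapk8ip2*, at 1.85 (95% interval, 1.11 to 3.08), followed by *Mapk11* with groups that overlapped, and by the kinase gene *Mapk3* at 1.34 (1.01 to 1.76).

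RNA-seq was carried out on whole pancreas of E18.5 embryos in 2 RestpKO libraries and 2 control libraries. RestpKO embryos carried *Pdx1-Cre* and LoxP-flanked *Rest* alleles, so that exon 4 of *Rest* was removed in the pancreatic epithelium, whereas the mesenchyme, vessels, nerves and blood cells in the same tissue kept the gene. Controls carried *Pdx1-Cre* with wild-type *Rest*, and all embryos were of a mixed strain background with C57BL/6. Each genotype had 1 male and 1 female library by the counts of sex-linked genes, so the libraries of a genotype came from different embryos, and p-values measure the spread between these 4 libraries only.

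MAP kinases are the last step of tiered kinase relays, in which a MAP3 kinase phosphorylates a MAP2 kinase, which then phosphorylates the MAP kinase. ERK kinases mainly carry growth factor signals, and the JNK and p38 kinases are activated by stress and inflammatory cytokines, to which pancreatic beta cells are sensitive. The JNK-interacting proteins (JIPs) hold a JNK together with the kinases upstream of it and also link cargo to kinesin motors. JIP1 and JIP2 are known mainly from neurons and from insulin-secreting cells, and JIP1 is also called islet-brain 1.

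Total counts were 20738162 and 24134100 in RestpKO libraries, and 16936759 and 18644088 in control libraries. The 10 most abundant genes took 38.2% and 43.6% of the counts in RestpKO libraries, against 37.3% and 36.2% in controls, so RestpKO replicate 2 stood somewhat apart. Levels are given in CPM, the count of a gene relative to the library total after trimmed-mean (TMM) scaling, and differences as log2 fold changes of RestpKO over control from edgeR's quasi-likelihood test, with p-values adjusted by the Benjamini-Hochberg method over all 14550 genes. The median log2 fold change of all tested genes was 0.00. *Rest* itself, whose reads outside exon 4 and from unrecombined cells remain in the count, had 12.1 and 9.16 CPM in RestpKO libraries, against 14.2 and 15.7 CPM in controls (log2 fold change, -0.49; edgeR adjusted p = 0.593). At an adjusted p below 0.05, 4 genes (0.0275% of those tested) were called, all lower, against 59 higher and 455 lower without RestpKO replicate 1, and 1 higher and 0 lower without RestpKO replicate 2.

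REST binds a DNA element called RE1, made of a left and a right motif, and sequence around the start sites of the 9 genes was therefore read from the mm9 assembly (NCBI build 37), 1000 bp to either side. The *Mapk8ip2* window was the only member window in which both motifs, AGCACC and GGACAG, stood in this order on 1 strand with 10 or fewer bases between them (both strands were searched). The pair began 424 bp upstream of the annotated start (position -424), at chr15:89283920-89283938, and its motifs were 7 bases apart. The RE1 consensus has 2 bases between the motifs, so the spacing of this pair departs from it. This search was chosen after the sequences had been seen, so the pair is a description only. Of 22035 gene windows, 222 (1.007%) held such a pair. The gap was 2 in 62 windows (0.2814%) and other than 2 in 160 windows (0.7261%). The stretch is shown because it belongs to the scaffold gene with the highest relative level in RestpKO pancreas, on the plus strand, which is the strand of the gene, with the left and right motifs in capitals.
*Mapk8ip2*, chr15:89283860-89283998: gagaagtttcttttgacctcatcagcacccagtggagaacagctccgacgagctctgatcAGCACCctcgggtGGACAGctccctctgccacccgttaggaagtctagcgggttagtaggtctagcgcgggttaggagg

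A search for the contiguous RE1 consensus, of which 15 positions are informative, gave a best match of 13 positions in the windows of *Mapk8*, *Mapk11* and *Mapk8ip1*, and of 12 positions in those of the other 6 members. A match of at least 13 was found in 19.15% of all windows and a match of at least 12 in 82.55%. The *Mapk8ip1* match lay 124 bp upstream of the start (position -124) and is shown for comparison with the *Mapk8ip2* pair, on the minus strand, which is the strand of the gene, with the matched window in capitals. Both stretches lie upstream of the annotated transcripts, and neither match shows that REST binds there in pancreas. The study mapped REST by chromatin immunoprecipitation in wild-type pancreas at an earlier embryonic stage. It reported REST-bound regions associated with *Mapk3*, *Mapk10*, *Mapk11*, *Mapk8ip1* and *Mapk8ip2*. Where those regions lie relative to the stretches shown was not examined here.
*Mapk8ip1*, chr2:92241468-92241604: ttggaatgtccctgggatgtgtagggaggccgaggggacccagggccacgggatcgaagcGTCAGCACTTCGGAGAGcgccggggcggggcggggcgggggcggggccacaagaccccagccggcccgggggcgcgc

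*Mapk3* encodes ERK1, a classical ERK kinase, and lies on chr7:133903115-133909333 on the plus strand. It had 98.3 and 109 CPM in RestpKO libraries, against 79.7 and 75.7 CPM in controls. Both mutant libraries lay above both controls. Means were 104 ± 7.70 CPM in RestpKO pancreas and 77.7 ± 2.83 CPM in control pancreas (SD, n = 2 each). The fitted log2 fold change was 0.42 ± 0.17 (SE; 95% interval, 0.02 to 0.82), with an unadjusted p of 0.0430 and an adjusted p of 0.543 by edgeR's quasi-likelihood test, so the difference did not pass the adjusted threshold. It was of similar size in both pairs of same-sex libraries, at 0.45 between the female libraries and 0.38 between the male libraries.

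The JNK kinases, named for phosphorylating the transcription factor Jun, are encoded by *Mapk8* (JNK1), *Mapk9* (JNK2) and *Mapk10* (JNK3). *Mapk8*, on chr14:34191084-34260344, had 22.7 and 14.9 CPM in RestpKO libraries, against 26.0 and 21.0 CPM in controls. One mutant library lay below both controls and the other lay between them. The log2 fold change was -0.32 ± 0.25 (SE; 95% interval, -0.90 to 0.26; edgeR adjusted p = 0.698). It was -0.80 between the female libraries and 0.11 between the male libraries, so these pairs differed in direction. With 1 library per genotype in each sex, an effect of sex cannot be told apart from differences between single embryos. Without RestpKO replicate 2, the female library, the fitted value was -0.04.

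*Mapk9*, on chr11:49660253-49699923, was the most abundant JNK gene. It had 61.1 and 48.8 CPM in RestpKO libraries, against 63.6 and 60.4 CPM in controls. The groups overlapped, and as for *Mapk8* the lowest value was that of the female RestpKO library. The log2 fold change was -0.17 ± 0.19 (SE; 95% interval, -0.61 to 0.26; edgeR adjusted p = 0.767), and leaving out single libraries gave -0.34 (without RestpKO replicate 1) to -0.02 (without RestpKO replicate 2).

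JNK3 differs from the other JNKs in its restricted expression, which is strongest in brain and is also known in heart, testis and beta cells. *Mapk10*, on chr5:103336967-103640353, was near the lower limit of detection, with 14 and 20 counts in RestpKO libraries, against 18 and 17 counts in controls. These correspond to 0.649 CPM (exact Poisson 95% interval, 0.355 to 1.09) and 0.911 CPM (0.556 to 1.41) in RestpKO libraries, against 1.07 CPM (0.635 to 1.69) and 0.857 CPM (0.499 to 1.37) in controls. These intervals cover counting error only, and all 4 overlapped. The log2 fold change was -0.30 ± 0.48 (SE; 95% interval, -1.42 to 0.82; edgeR adjusted p = 0.848), and that wide interval leaves room for a difference in either direction. Leaving out single libraries gave -0.07 (without RestpKO replicate 1) to -0.56 (without RestpKO replicate 2).

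**Figure D1:**
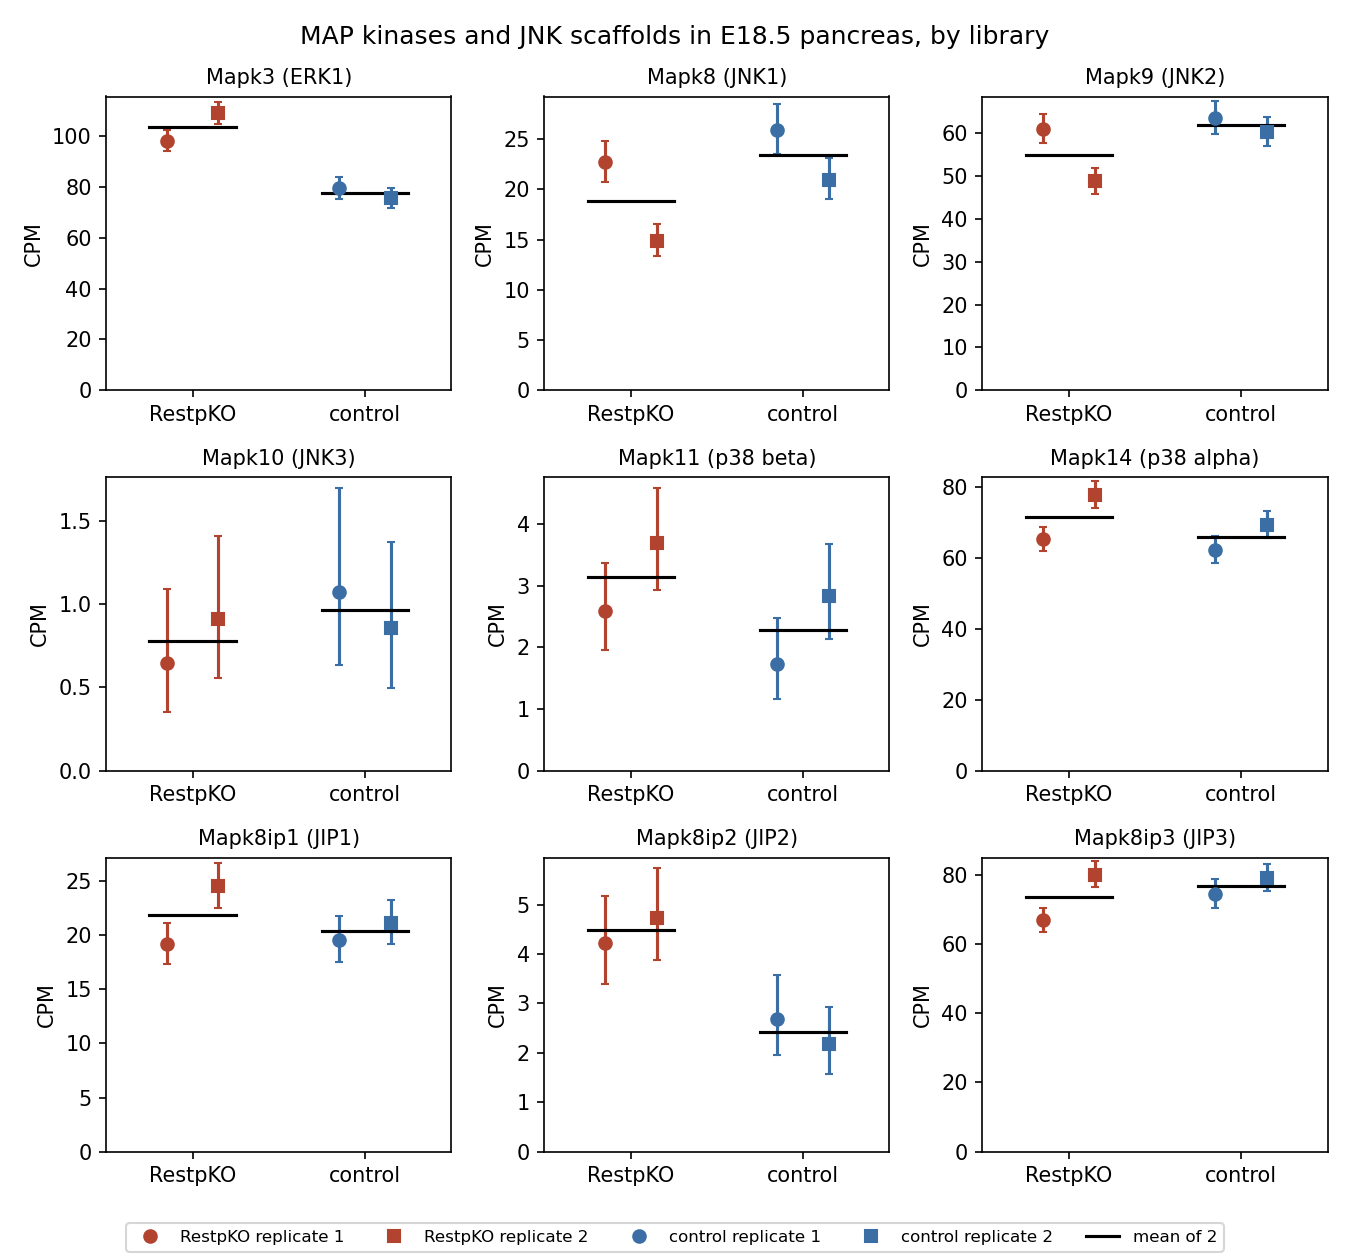
Level of each of the 9 genes in each library, as TMM-scaled CPM on linear axes from 0, with RestpKO left and control right in each panel. Points are libraries, vertical bars their exact Poisson 95% intervals and horizontal lines the group means (n = 2 each). *Mapk3* and *Mapk8ip2* are the genes in which both RestpKO points lie above both control points, at 98.3 and 109 against 79.7 and 75.7 CPM for *Mapk3*, and 4.22 and 4.74 against 2.68 and 2.17 CPM for *Mapk8ip2*.

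The p38 kinases share stress-activated MAP2 kinases, and *Mapk14* encodes the widely expressed p38 alpha and *Mapk11* encodes p38 beta. *Mapk14*, on chr17:28828287-28885349, had 65.2 and 77.8 CPM in RestpKO libraries, against 62.3 and 69.3 CPM in controls. The groups overlapped, with a log2 fold change of 0.12 ± 0.18 (SE; 95% interval, -0.30 to 0.54; edgeR adjusted p = 0.838). *Mapk11*, on chr15:88972916-88980036, was present at a much lower level, with 2.60 and 3.69 CPM in RestpKO libraries, against 1.73 and 2.82 CPM in controls. These libraries also overlapped. The *Mapk11* log2 fold change was 0.46 ± 0.39 (SE; 95% interval, -0.45 to 1.37; edgeR adjusted p = 0.723). It was 1.10 between the female libraries, where the control had 29 counts, and -0.12 between the male libraries, where each library had 56 counts. Leaving out single libraries gave 0.15 (without control replicate 1) to 0.86 (without control replicate 2), and 0.19 without RestpKO replicate 2.

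Of the scaffold genes, *Mapk8ip1* (JIP1), on chr2:92223833-92241420, had 19.2 and 24.6 CPM in RestpKO libraries, against 19.6 and 21.2 CPM in controls. One mutant library lay below both controls and the other above both. The log2 fold change was 0.10 ± 0.20 (SE; 95% interval, -0.36 to 0.57; edgeR adjusted p = 0.874), and on the linear scale the interval of the ratio reached 1.48. Of its exonic bases, 2.07% are shared with 1700029I15Rik on the opposite strand, and since the strand setting of the counting is not given, reads there could not be assigned to 1 gene.

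*Mapk8ip2* (JIP2), on chr15:89284344-89294899, had 91 and 104 counts in RestpKO libraries, against 45 and 43 counts in controls. Its levels were 4.22 CPM (exact Poisson 95% interval, 3.40 to 5.18) and 4.74 CPM (3.87 to 5.74) in RestpKO libraries, against 2.68 CPM (1.95 to 3.58) and 2.17 CPM (1.57 to 2.92) in controls. Both mutant libraries lay above both controls, although the intervals of the lower mutant and the higher control library overlapped. Means were 4.48 ± 0.366 CPM in RestpKO pancreas and 2.42 ± 0.361 CPM in control pancreas (SD, n = 2 each). On the log2 scale the RestpKO over control ratio was 0.89 ± 0.31 (SE; 95% interval, 0.15 to 1.62). The unadjusted p was 0.0241 and the adjusted p was 0.495 by edgeR's quasi-likelihood test, and 700 was the rank of this p among the 14550 genes. The ratio was 0.82 between the female libraries and 0.96 between the male libraries on the log2 scale. The shared direction of these pairs follows from both mutant libraries lying above both controls.

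*Mapk8ip3* (JIP3), a scaffold known for axonal transport in neurons, lies on chr17:25029098-25073922. It had 66.9 and 80.1 CPM in RestpKO libraries, against 74.5 and 79.1 CPM in controls, and the controls lay between the mutant libraries. The log2 fold change was -0.06 ± 0.18 (SE; 95% interval, -0.48 to 0.35; edgeR adjusted p = 0.911). Its GENCODE exons share 23.67% of their bases with *Eme2* on the same strand and with *Mrps34* and *Nme3* on the opposite strand. Counting used UCSC genes, and how reads in shared bases were treated is not given. This value may thus lack reads of *Mapk8ip3* or include reads of those genes.

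**Figure D2:**
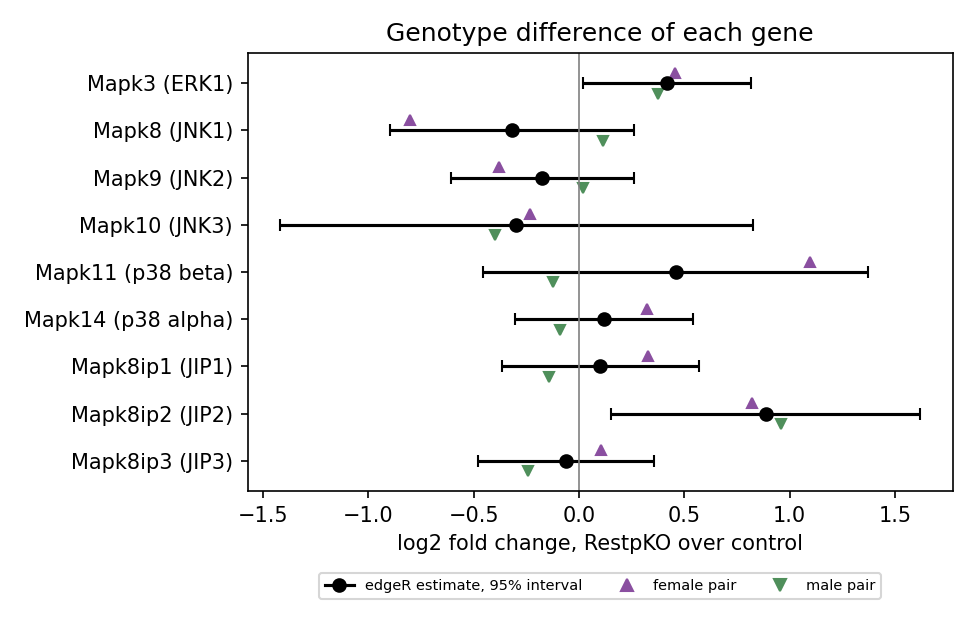
Log2 fold change of RestpKO over control for each of the 9 genes from edgeR, with 95% intervals as bars, and as triangles the log2 ratio of the female RestpKO over the female control library and of the male RestpKO over the male control library. The intervals of *Mapk3* (0.02 to 0.82) and *Mapk8ip2* (0.15 to 1.62) lie above 0 and those of the other 7 genes include 0.

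Over the 9 genes, 0 passed an adjusted p of 0.05 in either direction, where 0.0275% of all tested genes did. At an unadjusted p below 0.05, 2 genes were higher (*Mapk3* and *Mapk8ip2*) and 0 were lower, beside 3.26% of all tested genes that were higher and 5.61% that were lower at that level. In these 2 genes both RestpKO libraries lay above both controls, a pattern shown by 21.5% of all tested genes. In 0 of the 9 did both lie below, a pattern shown by 21.2% of all tested genes. The median log2 fold change of the 9 was 0.10, with 5 values above 0 and 4 below.

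With DESeq2, 0 of the 9 were called, where 0.716% of the genes it gave an adjusted p were, and the unadjusted p was 0.0606 for *Mapk8ip2* and 0.0562 for *Mapk3* (DESeq2 adjusted p = 0.757 and 0.747). With sex as a further term in edgeR, 0 of the 9 were called, where 1.7% of all tested genes were called in either direction. The unadjusted p in that fit was 0.0346 for *Mapk8ip2* and 0.129 for *Mapk3* (edgeR adjusted p = 0.452 and 0.743). Across 12 alternative analyses, *Mapk8ip2* kept a log2 fold change of 0.74 to 1.04 and *Mapk3* of 0.32 to 0.49. The unadjusted p was below 0.05 in 7 of 11 refits for *Mapk8ip2* and in 6 of 11 for *Mapk3*, and no adjusted p of either gene was below 0.110.

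Within families, levels were compared per kilobase of exon. In the JNK family, *Mapk9* gave 78.2% and 81.0% of the summed level in RestpKO libraries, against 76.4% and 79.2% in controls. *Mapk8* gave 21.3% and 18.1% in RestpKO libraries, against 22.8% and 20.2% in controls, and *Mapk10* gave 0.505% and 0.919% in RestpKO libraries, against 0.782% and 0.684% in controls. The makeup of the family thus overlapped between genotypes, with JNK2 transcripts the most abundant and JNK3 transcripts the least. Of the p38 pair, *Mapk11* gave 6.64% and 7.81% in RestpKO libraries, against 4.72% and 6.79% in controls. *Mapk14* therefore supplied the larger part of the pair in each library.

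Of the summed level of the 3 JIP genes, *Mapk8ip2* gave 7.81% and 7.15% in RestpKO libraries, against 4.79% and 3.67% in controls. *Mapk8ip3* gave 48.6% and 47.4% in RestpKO libraries, against 52.2% and 52.4% in controls. These shares did not overlap between genotypes, in opposite directions, and they are shares of 1 sum and so are not independent. For the levels of single genes, both RestpKO libraries lay above both controls in 21.5% of all tested genes and below in 21.2%. The shares were not tested. *Mapk8ip1* gave 43.6% and 45.5% in RestpKO libraries, against 43.0% and 43.9% in controls, and its share overlapped. With the longest coding transcript as the length, the *Mapk8ip1* share was 31.6% and 33.1% in RestpKO libraries, against 30.3% and 30.8% in controls, without overlap. On that length *Mapk8ip3* gave 64.3% and 63.1% against 67.3% and 67.3%, and *Mapk8ip2* gave 4.09% and 3.76% against 2.44% and 1.86%. The shares thus depend on the length used. JIP2 remained the least abundant of the 3 scaffolds in both genotypes.

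**Figure D3:**
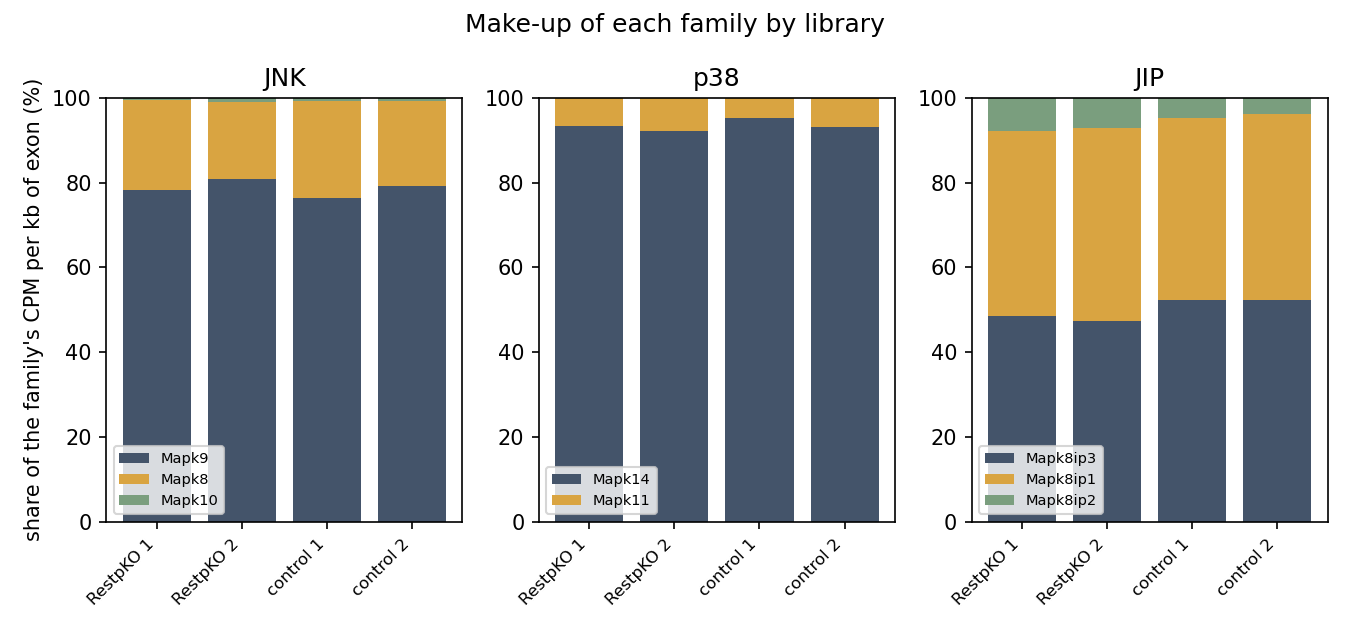
Share of each gene in the summed CPM per kilobase of exon of its family (JNK, p38 and JIP), for the 2 RestpKO libraries and then the 2 control libraries. The *Mapk8ip2* share of the JIP sum is 7.81% and 7.15% in RestpKO libraries, against 4.79% and 3.67% in controls, while the shares of the JNK genes overlap between genotypes.

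Ordered by mean CPM per kilobase of exon, the 9 genes ran from *Mapk3* (48.0 in RestpKO and 35.9 in control pancreas), *Mapk14* (16.4 and 15.1) and *Mapk9* (8.10 and 9.14) down to *Mapk11* (1.29 and 0.933), *Mapk8ip2* (0.786 and 0.425) and *Mapk10* (0.0699 and 0.0864). In between were *Mapk8ip3* at 5.05 in RestpKO and 5.28 in control pancreas, *Mapk8ip1* at 4.71 and 4.39, and *Mapk8* at 2.03 and 2.54. The order of the 9 was the same in both genotypes. Among neighbours in this order, the libraries of *Mapk8ip3* and *Mapk8ip1* overlapped in RestpKO pancreas and those of every other pair were separate in both genotypes. With the longest coding transcript as the length, the mean of *Mapk8ip3* (13.1 in RestpKO and 13.7 in control pancreas) passed that of *Mapk9* (11.7 and 13.2). On that length the libraries of both genes overlapped in each genotype.

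The genes whose values over the 4 libraries lay closest to those of *Mapk8ip2*, by Euclidean distance between centred log2(CPM + 0.5) values among 13618 genes, were *Ecscr* (0.0648), *Bcat1* (0.0675) and *Gfra3* (0.0757), and 5 genes lay within 0.1. The nearest to *Mapk3* were *Trpt1* (0.0142), *Zmat5* (0.0241) and *Slc50a1* (0.0317), with 86 genes within 0.1. The nearest to *Mapk8ip1* were *Vac14* (0.0108), *Ttc22* (0.0130) and *Commd6* (0.0148), with 227 within 0.1. With 4 libraries, many genes share a nearly flat pattern such as that of *Mapk8ip1*, and these distances are descriptions.

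The rest of the pathway was read from 7 lists with 88 tested genes, which held other MAP kinases, MAP2 kinases, MAP3 kinases, other scaffolds, MAP kinase phosphatases, effectors and JIP cargo or partner genes. Of these, 0 were called by edgeR, DESeq2 or limma-voom. At an unadjusted p below 0.05, 3 of the 88 were higher and 6 lower, near the shares of all tested genes (3.26% and 5.61%). The median log2 fold change was -0.05, beside 0.00 over all tested genes. RestpKO was above control in both libraries for 20 of the 88 genes and below for 23, and 45 had overlapping groups, where 21.5% of all tested genes lay above and 21.2% below.

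Upstream of the JNKs, the MAP2 kinase genes *Map2k4* and *Map2k7*, whose products phosphorylate JNK, had log2 fold changes of -0.08 and -0.09. Of the 7 MAP2 kinase genes, 4 had a value above 0 and 3 below, and 0 had an unadjusted p below 0.05. The smallest p values were those of *Map2k6*, which activates p38 (log2 fold change, 0.32), and *Map2k1*, which activates ERK (0.16). Of the 22 MAP3 kinase genes, 7 had a value above 0 and 15 below (median, -0.07), and 1 was lower at an unadjusted p below 0.05. This was *Taok1*, with 71.0 and 38.3 CPM in RestpKO libraries, against 96.0 and 91.7 CPM in controls (log2 fold change, -0.78; edgeR adjusted p = 0.504). Both mutant libraries lay below both controls, and the mutant libraries differed from each other more than the controls did. *Map3k2*, which had the next smallest p of the list, had a value of -0.58 (edgeR adjusted p = 0.615). Without RestpKO replicate 1 the values were -1.29 for *Taok1* and -1.08 for *Map3k2*, and both were called. That fit has 1 RestpKO library, which is assumed to vary as the controls do, and it called 455 genes lower in all, against 4 over all 4 libraries. *Map3k12*, which encodes the dual leucine zipper kinase held by JIP scaffolds in neurons, had a value of 0.23.

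JIP4, encoded by *Spag9*, is the closest relative of JIP3. *Spag9* had 126 and 99.5 CPM in RestpKO libraries, against 168 and 159 CPM in controls, with a log2 fold change of -0.53 ± 0.19 (SE; edgeR adjusted p = 0.501). Both mutant libraries thus lay below both controls, the opposite placing to *Mapk8ip2* and unlike the overlap of *Mapk8ip3*. Over the 7 genes of that list, 3 values were above 0 and 4 below (median, -0.18), and the ERK pathway scaffold gene *Lamtor3* had a value of 0.24.

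Among 11 cargo and partner genes of the JIPs, which include kinesin motor subunits, 7 values were above 0 and 4 below, with a median log2 fold change of 0.26. In 6 of the 11 both RestpKO libraries lay above both controls, and in 0 below, beside 21.5% and 21.2% of all tested genes. *Kif5a*, which encodes a neuronal kinesin heavy chain, had 2.18 and 3.01 CPM in RestpKO libraries, against 1.07 and 1.16 CPM in controls (log2 fold change, 1.21 ± 0.40 SE; edgeR adjusted p = 0.480). The kinesin light chain gene *Klc3* had 8.76 and 13.2 CPM in RestpKO libraries, against 6.67 and 6.66 CPM in controls (log2 fold change, 0.72; edgeR adjusted p = 0.512). These were the 2 genes of that list with an unadjusted p below 0.05, and neither passed the adjusted threshold. The widely expressed *Kif5b*, in contrast, had 148 and 93.6 CPM in RestpKO libraries, against 179 and 144 CPM in controls, and its groups overlapped.

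Downstream, 24 effector kinase and target factor genes had 8 values above 0 and 16 below, with a median log2 fold change of -0.22, and 1 higher and 3 lower at an unadjusted p below 0.05, beside 3.26% and 5.61% of all tested genes. *Jund*, an AP-1 subunit, had 41.7 and 52.7 CPM in RestpKO libraries, against 77.2 and 79.3 CPM in controls (log2 fold change, -0.73; edgeR adjusted p = 0.412). *Elk4*, an ERK-responsive ternary complex factor, had 9.55 and 8.11 CPM in RestpKO libraries, against 15.1 and 16.6 CPM in controls (log2 fold change, -0.84; edgeR adjusted p = 0.412). The gene for the JNK target Jun itself had a value of -0.31. The ERK-activated kinase gene *Rps6ka2* was the 1 with higher values, at 21.7 and 22.7 CPM in RestpKO libraries, against 14.8 and 13.9 CPM in controls (log2 fold change, 0.63; edgeR adjusted p = 0.437).

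The 10 phosphatase genes had a median log2 fold change of 0.09, with 6 values above 0. *Dusp7*, which encodes a phosphatase that acts on ERK, had 13.4 and 13.2 CPM in RestpKO libraries, against 19.4 and 25.9 CPM in controls (log2 fold change, -0.77; edgeR adjusted p = 0.424). *Dusp10*, whose product acts on JNK and p38, had 9.92 and 10.7 CPM in RestpKO libraries, against 8.99 and 6.61 CPM in controls, a log2 fold change of 0.41. Of the 7 other MAP kinase genes, 3 values were above 0 and 4 below. The smallest p values there were those of *Mapk15*, with a log2 fold change of 0.60, and *Mapk13* (p38 delta), with 20.9 and 27.0 CPM in RestpKO libraries, against 19.9 and 17.5 CPM in controls (log2 fold change, 0.36; edgeR adjusted p = 0.642).

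**Figure D4:**
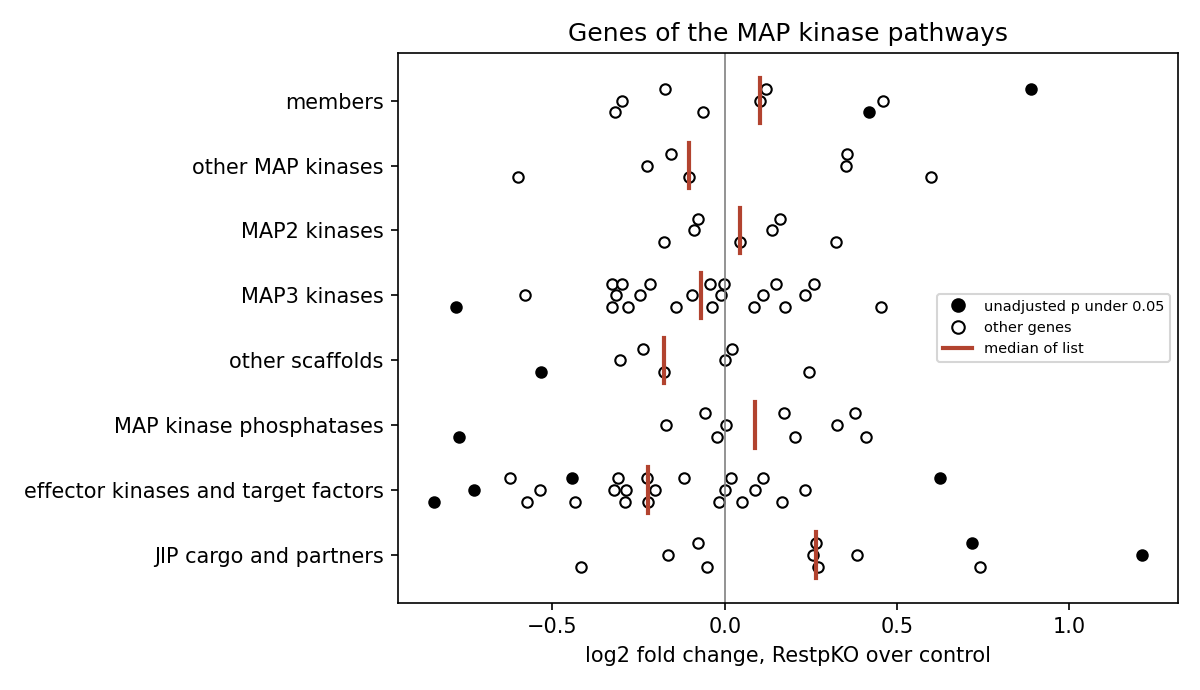
Log2 fold change of RestpKO over control for the 88 pathway genes, 1 point per gene in 7 lists, with the 9 genes described here in the top row (members), filled points for an unadjusted p under 0.05 and a bar at the median of each row. The list medians run from -0.22 for effectors to 0.26 for JIP cargo and partners, and 0 of the 88 genes passed the adjusted threshold.

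Whole pancreas holds several cell types, and levels in bulk tissue cannot tell fewer cells of a type apart from less RNA per cell. The summed level of 17 islet endocrine genes was 5115 and 7158 CPM in RestpKO libraries, against 3484 and 2326 CPM in controls, and all 17 had a log2 fold change above 0 (median, 0.72). Of 10 neuronal markers 8 were tested and all 8 had a value above 0 (median, 0.79). The summed levels of all 10, tested or not, were 33.1 and 46.1 CPM in RestpKO libraries, against 21.6 and 21.0 CPM in controls. For 5 tested Schwann cell markers the median was 0.58. The 10 acinar markers, of the cell type that makes digestive enzymes, summed to 160825 and 231739 CPM in RestpKO libraries, against 165885 and 157002 CPM in controls (median, 0.18), so the tissue carried the transcripts of pancreas in each library. *Mapk8ip2* (0.89) and *Kif5a* (1.21) thus lay in the same direction as the endocrine, neuronal, Schwann cell and endothelial markers. Of the 10 acinar markers, 9 also had a value above 0. The part of any of these cell types in the *Mapk8ip2* and *Kif5a* values was not tested. The islet list included *Neurog3*, *Neurod1*, *Insm1*, *Pcsk1* and *Pcsk2*, at which the study reported REST-bound regions. The study also describes REST as a suppressor of neuronal genes outside neurons. Levels of islet and neuronal markers in RestpKO pancreas thus need not follow cell number.

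The 5 endothelial markers were also above 0 (median, 0.31), and the 7 duct markers had a median of -0.02. Lower values were found for mesenchymal markers, which summed to 4592 and 7205 CPM in RestpKO libraries, against 8675 and 7748 CPM in controls (median, -0.43), and for 7 leukocyte markers (median, -0.29). The 5 tested red cell markers had a median of -2.88. The summed level of 6 such markers, tested or not, was 22.6 and 21.9 CPM in RestpKO libraries, against 34.1 and 139.5 CPM in controls, so control replicate 2 stood apart.

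Log2 fold changes were lower for genes with a larger summed exon length (Spearman's rho across 13312 genes, -0.296; genes are not independent replicates). With that trend removed, as values with no test, the log2 fold change was 0.97 for *Mapk8ip2*, 0.32 for *Mapk3*, 0.38 for *Mapk11*, and 0.15 for both *Mapk14* and *Mapk8ip1*. The 3 JNK genes came closer to 0, at -0.12 for *Mapk8*, and -0.05 for both *Mapk9* and *Mapk10*. *Mapk8ip3* had a value of 0.24, against -0.06 before, and its relative *Spag9* a value of -0.29, against -0.53 before.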

How the data were processed

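The authors deposited whole-number counts for each gene, made from paired-end reads aligned with STAR to mm9, keeping uniquely mapped reads and assigning them to UCSC genes with featureCounts (1.5 in the submitters' processing notes). The strand setting, and whether pairs or reads were counted, are not given in the sources used here. The methods give 3 pancreas per genotype as sampled, and 2 libraries per genotype were used here. The members and the pathway and marker lists were chosen with earlier results of these data known. The text names all 9 members, *Rest*, in each list the 2 genes with the smallest p, the 3 genes nearest in pattern to *Mapk3*, *Mapk8ip1* and *Mapk8ip2*, and marker sums; *Map2k4*, *Map2k7*, *Map3k12*, *Kif5b*, *Jun*, *Rps6ka2* and *Rps6ka3* were added from the lists for their role, after their values were seen.

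Counts were filtered (filterByExpr), scaled by TMM and fitted with genotype alone by edgeR 4.0.16 in R 4.3.3. Samples were grouped by the labels. DESeq2 1.42.0, limma-voom (limma 3.58.1), median-of-ratios scaling, other filters, a replicate block, sex and leaving out each library were the alternatives. Replicate libraries differed by more than sampling noise (chi-square per degree of freedom, 64.9 in RestpKO and 23.2 in control). Positions came from GENCODE vM1 on NCBIM37, the same build as mm9.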

Additional observations from a re-analysis of the deposited data

How the results depend on the processing

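Of 107 recomputed log2 fold changes of the 9 genes, 103 kept their direction. When single libraries were left out, *Mapk14* ranged over -0.0085 to 0.24, *Mapk8ip1* over -0.083 to 0.27 and *Mapk8ip3* over -0.19 to 0.064, with the reversed values without RestpKO replicate 2 for *Mapk14* and *Mapk8ip1* and without RestpKO replicate 1 for *Mapk8ip3*. *Mapk8ip3* also had 0.24 with the length trend removed, an alternative chosen after seeing the data; the cause of these changes was not tested. None of the analyses run here called any of the 9. The study's own DESeq2 analysis, in contrast, listed *Mapk3* among REST-bound cell cycle genes that were higher in RestpKO pancreas. Over the whole table, 0 genes were called higher and 4 lower by edgeR, against 26 and 76 by DESeq2, and 60 and 187 with sex as a term. Leaving out each library gave 1 to 59 higher and 0 to 455 lower, with the extremes without RestpKO replicate 2 (1 higher and 0 lower) and without RestpKO replicate 1 (59 higher and 455 lower). Of the 88 pathway genes 0 were called, and 0 to 3 when single libraries were left out. The 3 were *Map3k2* (log2 fold change, -1.08), *Taok1* (-1.29) and *Rps6ka3* (-0.99) without RestpKO replicate 1. With the replicate block, 0 genes were called higher and 4 lower, 0 of the 9 were called and 2 had an unadjusted p below 0.05. The shared numbers did not pair the libraries (correlation of same-numbered deviations, 0.0652). *Mapk10* had 14 to 20 counts and *Mapk8ip2* had 43 to 104 counts, so counting error adds to the spread between libraries for both. With 2 libraries per genotype the fit had 2 residual degrees of freedom. The edgeR p-values and intervals also drew on spread shared across genes (median prior degrees of freedom, 5.48). Each SE was derived from the fold change and its F statistic.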
